A study of Saccharomyces cerevisiae with 16 samples.

Results

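The yeast genes described here are BDH2 (YAL061W), BDH1 (YAL060W), RSB1 (YOR049C) and YER053C-A, 4 of the 6225 genes on the arrays. BDH2, RSB1 and YER053C-A were chosen because their transcripts lay above their 0 min level at 5 min and below it at 90 min, and BDH1 was added as the neighbour and paralog of BDH2. The values at 5 and 90 min of the 3 chosen genes are therefore given as a description, without a test. RNA was taken from 2 phosphate-limited chemostat cultures, A and B, at 0, 5, 10, 15, 20, 30, 45 and 90 min after 1 µM β-estradiol was added, which makes 8 time groups of 2 samples and 16 arrays. Sample RNA was labelled with Cy5 (red) and RNA of the reference strain DBY12001 with Cy3 (green) on every array, with no dye swap. The measurement is the log2 ratio of red over green processed signal, both raised to a floor of 50 where they were lower.

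Both cultures, and so all 8 groups, were of one haploid MATa strain of S288C background. It carried ROF1 under the Z3EV promoter next to a URA3 marker, the Z3EV artificial transcription factor expressed from the ACT1 promoter in a cassette linked to HAP1 and natMX, and ura3Δ0, can1Δ::STE2pr-Sphis5, his3Δ1 and lyp1Δ. β-Estradiol moves Z3EV into the nucleus, where it activates the Z3EV promoter. The time course had no counterpart in a strain that lacks the ROF1 construct, so a change caused by ROF1 and a change caused by the inducer or by other steps of the time course cannot be told apart. The 2 cultures were on separate slides, and a given time occupied the same array position on both slides, so time and array position cannot be told apart either.

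Bdh1 is the NAD-dependent (R,R)-butanediol dehydrogenase, which interconverts acetoin and 2,3-butanediol, and BDH2 encodes a related putative medium-chain alcohol dehydrogenase from the adjacent gene. Rsb1 is a membrane protein of the Rta1-like family, thought to move sphingoid long-chain bases across the plasma membrane, and its gene is a known target of the multidrug-resistance regulator Pdr1. YER053C-A encodes a small protein of unknown function. ROF1, the induced gene, codes for a protein of the WOPR family of fungal transcription factors.

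The arrays measured most genes well. Median red signal over spots was between 931 and 1417 per array and median green signal between 946 and 1432. Red signal was well above background for 90.5 to 97.4% of spots. The lowest of each of these was on the 10 min array of culture B. The next lowest median red was 1203, at 45 min in culture A. The 15 min array of culture B had 183 spots marked as outliers, the most of any array, of which 0 belonged to the 4 genes. At 5 min the log2 ratio of ROF1 had risen by 3.43 ± 0.20 (SE; limma, adjusted p = 3.26e-05) from a signal at the floor, on which this size depends. At 0 min the log2 ratios of the deleted genes CAN1, LYP1 and HIS3 were -5.09, -6.03 and -6.82.

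BDH2 rose and then fell over the widest range of the 4 genes. The log2 ratios of culture A, in the order of the 8 times from 0 to 90 min, were 0.14, 0.95, 0.71, 0.36, -0.14, -0.66, -1.29 and -2.15. Those of culture B were 0.41, 1.03, 0.78, 0.51, 0.14, -0.60, -1.07 and -2.10. Both cultures were highest at 5 min and lower at each later sampling. The change from 0 min was 0.71 ± 0.13 (SD, n = 2) at 5 min, a 1.64-fold higher level, and -2.40 ± 0.16 (SD, n = 2) at 90 min, a 5.27-fold lower level. By linear interpolation between samplings the ratio was back at its 0 min value after 17.2 min (culture A) and 16.3 min (culture B).

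RSB1 rose and then fell in both cultures. In the same order of times, its log2 ratio in culture A was -0.50, 0.25, -0.17, -0.69, -1.08, -1.49, -1.67 and -1.61. In culture B it was -0.59, 0.27, -0.23, -0.72, -1.17, -1.37, -1.65 and -1.58. The ratio was lowest at 45 min in both cultures, after which it rose slightly in both. The change from 0 min was 0.80 ± 0.07 (SD, n = 2) at 5 min and -1.05 ± 0.08 (SD, n = 2) at 90 min, the second a 2.07-fold lower level. The 0 min value was passed after 13.2 min (A) and 13.7 min (B), before that of BDH2 in both cultures.

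YER053C-A was highest at 5 min and fell at each later sampling in both cultures. Culture A gave log2 ratios over the 8 times of 0.20, 0.76, 0.40, 0.08, -0.29, -0.72, -0.91 and -1.02. Culture B gave -0.004, 0.78, 0.39, 0.08, -0.24, -0.63, -0.83 and -0.97. The cultures differed most at 0 min, so the changes from 0 min were spread more widely than the ratios. They were 0.67 ± 0.16 (SD, n = 2) at 5 min and -1.09 ± 0.18 (SD, n = 2) at 90 min, a 2.13-fold lower level. The 0 min value was passed after 13.0 min (A) and 16.4 min (B).

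BDH1 rose early and then fell back towards its 0 min ratio. Over the 8 times its log2 ratio in culture A was -0.38, 0.05, 0.09, -0.04, -0.28, -0.45, -0.38 and -0.28. In culture B it was -0.42, -0.02, -0.02, -0.20, -0.35, -0.48, -0.45 and -0.37. The highest ratio was at 10 min and the lowest at 30 min in both cultures, and the 0 min value was passed after 25.8 min (A) and 24.9 min (B). Since BDH1 was not chosen by its values it was tested at 5 min, where it was higher by 0.41 ± 0.03 (SE), or 1.33-fold, with an adjusted p of 6.49e-05 from limma. Of all genes tested 10.1% were higher at 5 min. Red signal alone was taken as log2 signal centred on the median of the genes tested on each array. On it the rise of BDH1 was 0.42 and did not pass (limma, adjusted p = 0.402). At 90 min BDH1 differed from 0 min by 0.08, with a 95% interval of 0.01 to 0.14, and did not pass the adjusted threshold (limma, adjusted p = 0.072), which it did with either 15 min array left out (adjusted p = 0.0193).

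**Figure D1:**
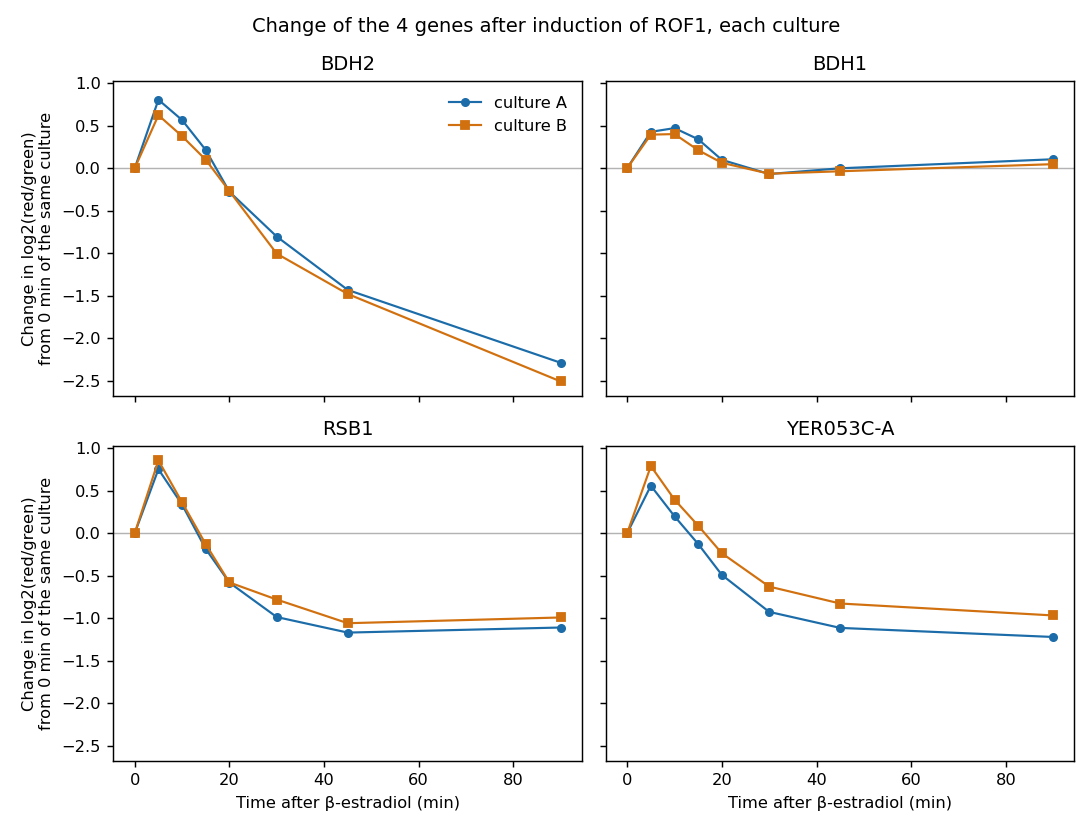
Change of the log2 ratio from the 0 min array of the same culture (y axis) against minutes after β-estradiol (x axis) for BDH2, BDH1, RSB1 and YER053C-A; circles are culture A and squares culture B. BDH2 fell to -2.29 in culture A and -2.51 in culture B at 90 min, RSB1 levelled after 45 min, and BDH1 at 90 min was 0.10 (A) and 0.05 (B).

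The choice of the 3 genes used a joint condition at 5 and 90 min. At an adjusted p under 0.05, 155 genes met both directions, and 5 of these reached a change of 0.5 at 5 min and -1 at 90 min: HXT4, BDH2, CIN5, YER053C-A and RSB1. Just outside were MAL11 (0.49 at 5 min and -1.73 at 90 min), MAL31 (0.48 and -1.49), YSC84 (0.40 and -1.09), GPH1 (0.45 and -0.98), YMR206W (0.69 and -0.93) and RTN2 (0.71 and -0.88). The sizes of 0.5 and -1 were set here for description and are not stated in the rule that chose the genes. HXT4 and CIN5 reached them but were not among the genes chosen. RSB1 at 90 min, at -1.05, was nearest to these sizes among the 3 genes.

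The times between 5 and 90 min were not used for the choice, although these contrasts share the 0 min arrays with those that were. At 10 min all 4 genes were higher than at 0 min, against 11.6% of the 6046 genes tested. BDH2 was higher by 0.47 ± 0.06 (SE; limma, adjusted p = 0.00117), BDH1 by 0.44 ± 0.03 (adjusted p = 4.47e-05), RSB1 by 0.35 ± 0.05 (adjusted p = 0.00131) and YER053C-A by 0.30 ± 0.06 (adjusted p = 0.0106). YER053C-A missed the threshold with the 10 min array of either culture left out (limma, adjusted p = 0.0542 and 0.0502). With a floor of 200 RSB1 was at 0.072 (adjusted p = 0.846), and on red signal alone none of the 4 passed at 10 min (adjusted p = 0.0613 to 0.251). At 15 min only BDH1 passed the test among the 4 genes, at 0.28 ± 0.03 (adjusted p = 0.00055), against 9.01% of all genes higher. On red signal alone this call was lost and the value was -0.0080 (limma, adjusted p = 0.993). The changes of BDH2, RSB1 and YER053C-A at 15 min were 0.16, -0.16 and -0.02, with adjusted p of 0.133, 0.0535 and 0.911 from limma. RSB1, at the same value of -0.16, passed with either 30 min array left out (limma, adjusted p = 0.018), with a floor of 20 (0.0499), with a strict filter on dim probes (0.0393) and without the block (0.0424), and YER053C-A at -0.14 with the 0 min array of culture B left out (adjusted p = 0.0317) but at 0.10 without that of culture A (adjusted p = 0.0839).

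From 20 min BDH2, RSB1 and YER053C-A were lower than at 0 min. At 20 min the 3 genes were at -0.27, -0.58 and -0.36 (limma, adjusted p = 0.0231, 0.000284 and 0.0081), while the share over all genes was 7.56%. When the 20 min array of culture A was left out, the call was lost for BDH2 (limma, adjusted p = 0.139) and YER053C-A (adjusted p = 0.0576), and leaving out the 0 min array of culture B cost the call of BDH2 (adjusted p = 0.130). On red signal alone none of the 3 passed at 20 min (adjusted p = 0.230 for RSB1 and 1.00 for the others), and without the culture block BDH2 did not (adjusted p = 0.161). At 30 min the same 3 genes passed, at -0.91, -0.88 and -0.78 (adjusted p = 7.22e-05, 1.80e-05 and 0.000191), against 5.94% of all genes. At 45 min they were at -1.46, -1.11 and -0.97 (adjusted p = 2.97e-06, 2.88e-06 and 3.25e-05), against 7.96% of all genes. With a floor of 200 RSB1 passed at none of these times, at -0.049, 0.090 and -0.013 at 20, 30 and 45 min (limma, adjusted p = 0.970, 0.821 and 1). BDH1 was at 0.08, -0.07 and -0.02 at 20, 30 and 45 min, with adjusted p of 0.111, 0.187 and 0.75 from limma, the first of which was 0.0367 with either 15 min array left out.

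The change from 10 and 15 min to 30 and 45 min was formed without the arrays of 0, 5 and 90 min, but from the same 2 cultures. The SE and p-values of its limma test draw on the spread of all arrays, those of 0, 5 and 90 min included. On the 4 early arrays the log2 ratio of BDH2 ran from 0.36 to 0.78 with a median of 0.61, and on the 4 late arrays from -1.29 to -0.60 with a median of -0.87. RSB1 ran from -0.72 to -0.17 early and from -1.67 to -1.37 late. YER053C-A ran from 0.08 to 0.40 early and from -0.91 to -0.63 late. All late arrays lay below all early arrays for these genes and also for BDH1, which ran from -0.20 to 0.09 early and from -0.48 to -0.38 late. This lack of overlap in the same direction held for 17.0% of all genes.

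All 4 genes were lower late than early, and 21.0% of all genes tested were lower. BDH2 fell by 1.49 ± 0.04 (SE), or 2.82-fold (limma, adjusted p = 3.21e-07), and was the fourth lowest of 6046 genes. The cultures gave -1.51 (A) and -1.48 (B). RSB1 changed by -1.09 ± 0.03, or 2.13-fold lower (adjusted p = 3.21e-07), with -1.15 in culture A and -1.04 in culture B, but was at 0.08 (adjusted p = 0.581) when the floor was 200 in place of 50. YER053C-A changed by -1.01 ± 0.04, or 2.02-fold lower (adjusted p = 2.17e-06), with -1.06 in culture A and -0.97 in culture B. BDH1 changed by -0.40 ± 0.02, or 1.32-fold lower (adjusted p = 4.97e-06), which placed it at rank 146 from the lowest, against rank 16 for RSB1 and rank 20 for YER053C-A.

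**Figure D2:**
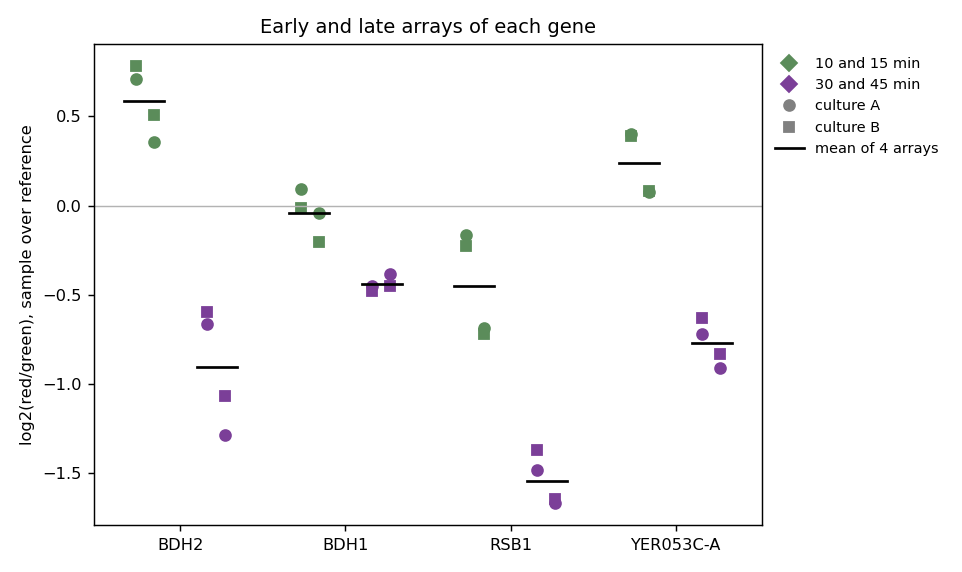
Log2 ratio of sample over reference (y axis) of each gene (x axis) on the arrays of 10 and 15 min (green) and of 30 and 45 min (purple); circles are culture A, squares culture B and bars the mean of 4 arrays. No late point of a gene reaches its early points, and the distance is smallest for BDH1, whose change was -0.40.

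The log2 ratios of the paralogs BDH2 and BDH1 followed different courses in both cultures, which is given as a description. BDH2 was chosen by its values at 0, 5 and 90 min, while BDH1 was not chosen by its values. The differences between the genes at those times are therefore partly set by that choice. Over the 8 times, from 0 to 90 min, the log2 ratio of BDH2 minus that of BDH1 was 0.67, 0.98, 0.71, 0.55, 0.32, -0.16, -0.76 and -1.80 (means of 2 cultures). This difference of ratios to the reference changed sign between 20 and 30 min in both cultures, from 0.52 (A) and 0.82 (B) at 0 min. Counted from 0 min of the same culture, it was below 0 from 15 min in culture A (-0.13). In culture B it was below 0 from 10 min (-0.02). On arrays not used for the choice, from 10 and 15 min to 30 and 45 min, the difference fell by 1.07 in culture A and by 1.12 in culture B. A two-sided exact permutation test of times within cultures gave p = 0.0556, the smallest value that its 36 arrangements allow, so this design cannot reach 0.05. Cross-hybridisation between the probes of the paralogs was not tested.

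Both channels were examined, since a ratio can move with either. Over the 8 times the red signal of BDH2 was 4739, 8611, 7230, 5712, 3904, 2939, 1606 and 952 in culture A, and in culture B it was 5541, 8422, 5149, 6818, 4496, 2903, 2011 and 945. Green signal of BDH2 stayed between 3030 and 4702 with a median of 4257 over the 16 arrays. The sample channel thus spanned 9.11-fold and the reference channel 1.55-fold. The change of red signal alone was 0.74 at 5 min and -2.39 at 90 min on the log2 scale, and that of green 0.03 and 0.01. Changes of a single channel, here and below, are of signal centred on the median of each array. The signals printed for each time are not centred.

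RSB1 had signals near the floor in both channels. Its red signal, in the order of times, was 155, 270, 213, 131, 103, 71.8, 58.0 and 62.6 in culture A, and in culture B it was 148, 259, 140, 184, 105, 79.0, 80.5 and 83.0. Red signal of RSB1 was highest at 5 min in both cultures and lay above the floor on every array. Green signal ran from 164 to 298 with a median of 219. At 15 min in culture B red was 0.32 higher and green 0.46 higher than at 0 min, so the 2 channels moved together on that array and the ratio changed by -0.13.

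YER053C-A had a red signal of 3098 at 0 min, 4340 at 5 min and 1319 at 90 min in culture A. In culture B it was 2857, 4614 and 1677. Its green signal ran from 1981 to 3279, a 1.66-fold range against 3.51-fold in red. BDH1 varied less, with red signal from 7844 to 15019 (1.91-fold) and green signal from 9524 to 14422 (1.51-fold). On the 15 min array of culture B its red signal was 0.34 lower and its green signal 0.55 lower than at 0 min, while its ratio was 0.21 higher.

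**Figure D3:**
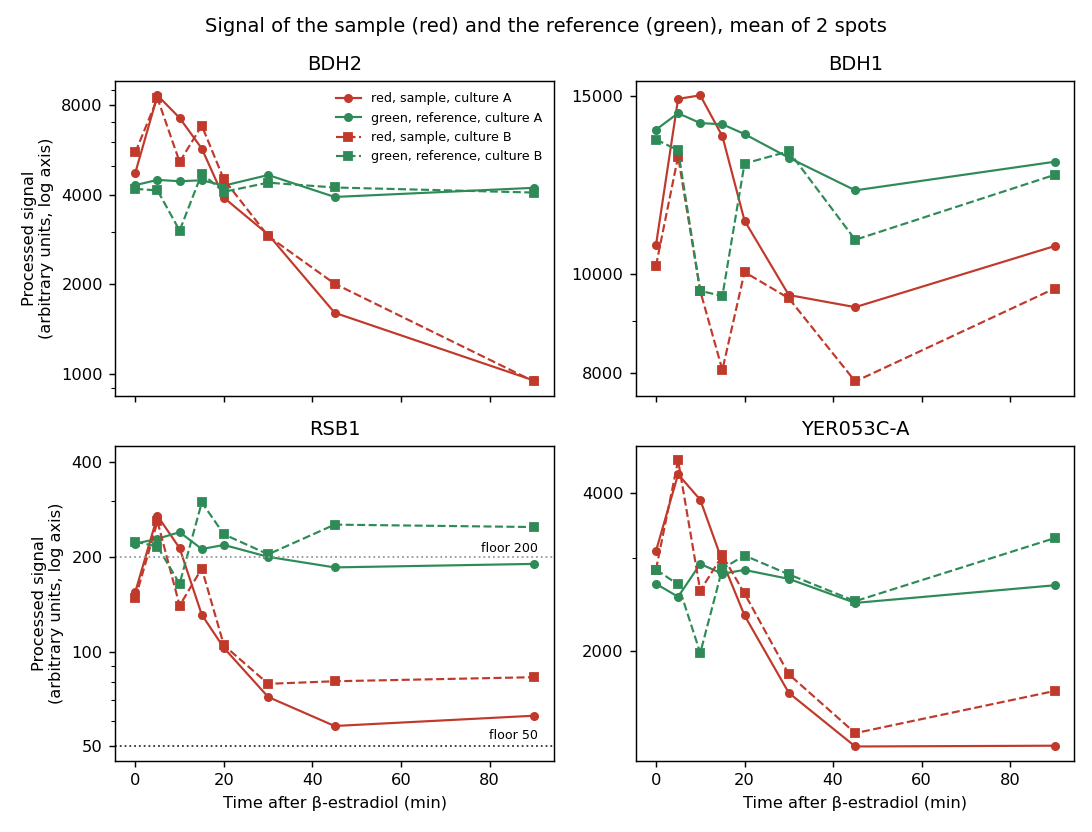
Processed signal in arbitrary units on a log axis (y axis, a separate range in each panel) against minutes after β-estradiol (x axis), red for the sample and green for the reference; solid lines are culture A and dashed lines culture B. Red signal of BDH2 and YER053C-A lies below green at 30, 45 and 90 min in both cultures, that of RSB1 lies above green at 5 min alone, and green signal spans 1.51-fold to 1.81-fold over the 4 genes. Red signal of RSB1 lies between the floors of 50 and 200 on most arrays.

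The floor of 50 touched none of the 4 genes. Of 32 red and 32 green spots of each gene, 0 were below 50, and 0 were not well above background. The lowest red spot of the 4 genes, at 54.4, belonged to RSB1. The log2 ratios of the 4 genes with no floor or with a floor of 20 were therefore identical to those with 50 (largest difference 0), while adjusted p-values moved with the other genes. With a floor of 200, RSB1 lost its fall, since 25 of its 32 red spots and 12 of its 32 green spots were under 200. Its change at 5 min was then 0.41, at 90 min -0.01, and late against early 0.08 (limma, adjusted p = 0.581). BDH2, BDH1 and YER053C-A had 0 spots under 200 and kept the same values.

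Background correction of the raw signals by normexp with an offset of 50 and loess within arrays moved RSB1 to 0.64 at 5 min, -0.57 at 90 min and -0.67 late against early (limma, adjusted p = 1.48e-11). The same correction gave BDH2 0.68, -2.29 and -1.46, and YER053C-A 0.65, -1.02 and -0.99. The size of the fall of RSB1 was thus the only one of the 3 falls that moved by over 1.5 times with these settings. An offset of 50 is large beside the raw red signal of RSB1, 59.5 at 90 min in culture A, against 665.5 for BDH2. Adding it draws the log2 ratios of a dim gene towards 0, and its part in these values was not tested apart.

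**Figure D4:**
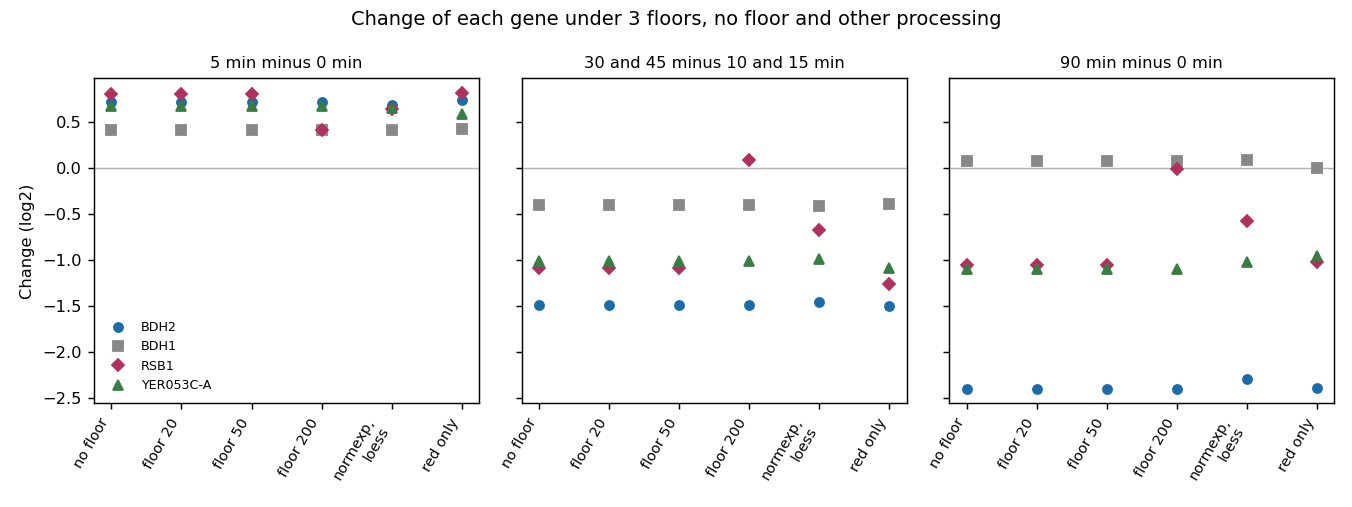
Change on the log2 scale (y axis) of each gene at 5 min, late against early, and at 90 min, with no floor, floors of 20, 50 and 200, normexp with loess, and red signal alone (x axis). Only RSB1 moves visibly with the floor, from -1.09 to 0.08 late against early, while BDH2 stays at -1.49 under all 3 floors and without one.

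Before the inducer was added the strain already differed from the reference in some of these genes. A dye bias remains in this comparison because dyes were not swapped. The 0 min arrays are also the baseline of the changes by which BDH2, RSB1 and YER053C-A were chosen. The tests of these chosen genes at 0 min are therefore not independent of the choice. RSB1 was at -0.55 ± 0.03 (SE; limma, adjusted p = 2.79e-06) and BDH1 at -0.40 ± 0.04 (adjusted p = 0.000101), against 23.8% of all genes lower. With a floor of 200 RSB1 was at -0.16 (adjusted p = 0.291). BDH2 was at 0.28 ± 0.08 (adjusted p = 0.0208), against 25.9% of all genes higher, and the 0 min array of culture A without that of B gave 0.14 (adjusted p = 0.324, with the spread taken from the other times). YER053C-A was at 0.10 and did not pass the test (adjusted p = 0.0774). Its 0 min arrays gave 0.20 in culture A and -0.004 in culture B.

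Over the 16 arrays the courses of RSB1 and YER053C-A were the most alike among the 4 genes, with a Pearson correlation of 0.99. That of BDH2 was 0.94 with YER053C-A, 0.89 with RSB1 and 0.63 with BDH1. Among 5457 genes above the floor in both channels on all arrays, the genes most like BDH2 were HXT4, a hexose transporter (0.997), YSC84, an actin-binding protein (0.984), and AQY1, an aquaporin (0.984). CIN5, a bZIP transcription factor of the Yap family, was the gene most like both RSB1 (0.989) and YER053C-A (0.991), and YSC83, which neighbours YSC84, was close to both (0.979 and 0.991). The genes most like BDH1 were RFS1 (0.949), YNK1, the nucleoside diphosphate kinase (0.947), and YEL073C (0.937). All points share the 2 cultures, the array positions and the reference RNA, so these values are descriptions. The arrays also include those by which BDH2, RSB1 and YER053C-A were chosen for a rise followed by a fall. The likeness of these genes to each other, and to HXT4 and CIN5 with the same shape, is therefore partly set by that choice. The same holds for their lower likeness to BDH1.

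HXT4 changed by 0.62 at 5 min and -2.67 at 90 min beside 0.71 and -2.40 for BDH2. CIN5 changed by 0.82 and -1.51 beside 0.80 and -1.05 for RSB1. AQY1, with a correlation of 0.984 with BDH2, reached -2.43 at 90 min after a smaller rise of 0.19 at 5 min.

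BDH2 and BDH1 lie next to each other on chromosome I between GDH3, an NADP-dependent glutamate dehydrogenase, and ECM1, a protein of ribosomal subunit export. GDH3 changed by 0.06 at 5 min (limma, adjusted p = 0.391) and -0.48 at 90 min (adjusted p = 4.56e-05), and 20.0% of all genes were lower at 90 min. ECM1 was lower at 5 min by -0.31 (adjusted p = 0.00534), against 9.54% of all genes lower, and its change at 90 min was -0.03 (adjusted p = 0.755). Neither neighbour passed the test for a rise at 5 min, which BDH1 did.

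On chromosome V, YER053C-A lies between PIC2, a mitochondrial carrier, and GIP2, a putative regulatory subunit of protein phosphatase Glc7. PIC2 was higher at 5 min by 0.85 in culture A and 0.76 in culture B (limma, adjusted p = 1.71e-05), and GIP2 by 0.96 and 0.85 (adjusted p = 9.90e-05), against 10.1% of all genes higher. At 90 min PIC2 was at -0.42 (adjusted p = 0.00011) and GIP2 at 0.08 (adjusted p = 0.422), beside -1.09 for YER053C-A, a value that its choice used. Late against early, PIC2 changed by -0.71 (adjusted p = 1.53e-06) and GIP2 by -0.44 (adjusted p = 0.000279). The genes taken as neighbours of RSB1 on chromosome XV were RAT1, a nuclear exonuclease, and ETT1, a factor of translation termination. YOR050C, numbered between RSB1 and ETT1, was on the arrays but was not among the neighbours taken, and its values are not given. RAT1 and ETT1 had mean changes between -0.21 and -0.02 at all later times. ETT1 passed the test for a fall at 5 min at -0.09 (limma, adjusted p = 0.04) and at 90 min at -0.12 (adjusted p = 0.00502). Late against early RAT1 was higher by 0.16 (adjusted p = 0.00191).

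**Figure D5:**
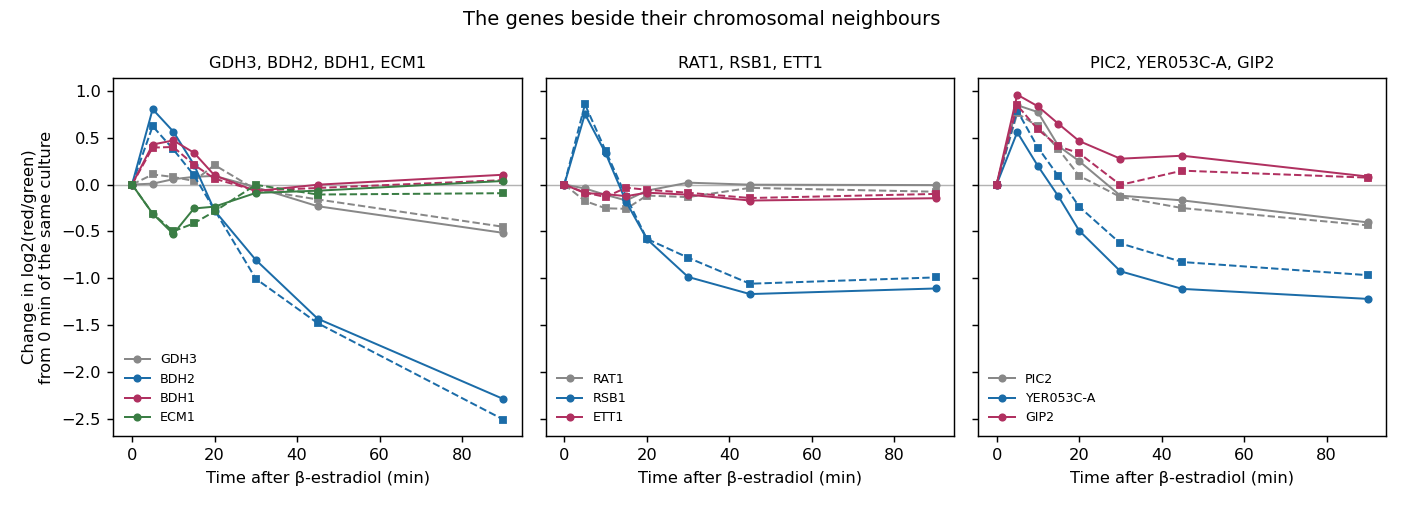
Change of the log2 ratio from 0 min of the same culture (y axis) against minutes after β-estradiol (x axis) for BDH2 and BDH1 with GDH3 and ECM1, for RSB1 with RAT1 and ETT1, and for YER053C-A with PIC2 and GIP2; solid lines are culture A and dashed lines culture B. PIC2 and GIP2 rise with YER053C-A at 5 min, to 0.80 and 0.90 on average. None of GDH3, ECM1, RAT1 and ETT1 passed the test for a rise at 5 min.

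RSB1 and BDH2 are in a list of 18 genes linked to the drug-resistance regulators Pdr1 and Pdr3, of which 17 were tested. Of the 15 others, 4 were higher and 3 lower late against early, with a median of 0.01. Over all genes 22.9% were higher and 21.0% lower, with a median of 0, so both counts are near the shares over all genes. The gene RTA1, of the same family as RSB1, was at -0.50 (limma, adjusted p = 0.00183) and LAF1 (YMR102C) at -0.47 (adjusted p = 9.63e-06), while PDR16, a phosphatidylinositol transfer protein, was at 0.28 (adjusted p = 0.000143). IPT1, an inositolphosphotransferase, was at -0.17 (adjusted p = 0.0045) and PDR5, a drug exporter, at 0.20 (adjusted p = 0.00493). At 90 min 7 of the 15 were higher and 4 lower, against 20.7% of all genes higher and 20.0% lower. The exporter genes of the list did not move alike at 90 min: PDR5, PDR15 and YOR1 were higher at 0.45, 0.89 and 0.63, PDR10 was lower at -0.20 (adjusted p = 0.0116), and SNQ2 and TPO1 did not pass at -0.08 and 0.07 (adjusted p = 0.282 and 0.338).

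Among 21 other genes of alcohol, aldehyde and acetoin metabolism, 7 were lower and 1 higher late against early, with a median of -0.07, beside 21.0% lower and 22.9% higher over all genes. The lowest were the aldose reductase gene GRE3 at -0.56 (limma, adjusted p = 9.04e-05), GCY1, a related reductase, at -0.40 (adjusted p = 6.16e-06), ARA1, an arabinose dehydrogenase, at -0.34 (adjusted p = 7.78e-05), and the NADPH oxidoreductase gene OYE3 at -0.32 (adjusted p = 0.000154). The gene that was higher, OYE2, a relative of OYE3, was at 0.21 (adjusted p = 0.00889). None of these 21 fell as far as BDH2.

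Of 35 other genes of long-chain base metabolism and lipid translocation, 7 were lower and 4 higher late against early, with a median of 0.01, a share lower that is near the 21.0% over all genes and a share higher below the 22.9%. SUR2, the hydroxylase that makes phytosphingosine from dihydrosphingosine, was at -0.82 (limma, adjusted p = 3.76e-06), the nearest of this list to RSB1. SUR1, a subunit of mannosylinositol phosphorylceramide synthase, was higher by 0.35 (adjusted p = 1.10e-05), and LCB4, a long-chain base kinase, and IPT1 were both at -0.17 (adjusted p = 0.003 and 0.0045).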

How the data were processed

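The 16 arrays measured RNA of 2 cultures at 8 times. The authors extracted spots with Agilent Feature Extraction 12.0.1.1, and the deposited intensity used here is the processed one, from which background had been subtracted and in which the dyes had been normalized within each array. The authors also deposited log2 ratios of intensities floored at 50, and recomputed ratios differed from these by over 1e-04 for 0 probes. Outlier spots (3 to 183 per array) were left out and the 2 spots of a probe averaged; for 29 genes with several probes the brightest was taken. Of 6225 genes, 6046 were tested, those with red signal well above background on 2 arrays or more.

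The test was limma 3.58.1 (R 4.3.3), fitted once to all arrays with terms for time and for culture (the block) and 7 residual degrees of freedom, with p-values adjusted over all genes by the Benjamini-Hochberg method and called under 0.05. The block pairs samples because a letter marks 1 culture followed over time; deviations of same-culture arrays correlated between -0.05 and 0.40 (median 0.15, 28 pairs). The p-values rest on the spread between the 2 cultures that the block leaves, and arrays of a culture were treated as independent. Ratios at 0 min were tested without the block. The number of arrays limits the precision.

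The members, lists and rule for named genes were chosen with earlier results of these data known. The rule names the 4 genes, 1 neighbour on each side, strain markers, the 3 most correlated genes each, and up to 5 genes of each list with the largest called change late against early; the values of list genes at 90 min were added after they were seen. Names and neighbours came from a RefSeq table of assembly R64, which held 5720 of the genes. Alternatives were other floors, normexp with loess, the deposited table, filters, median centring, red signal alone, no block, and fits that leave out an array or a culture. Red signal alone was log2 red signal centred on the median of each array. The fit and the permutation test were checked on simulated data. A search of promoters for motifs was not run, since no sequence was used here. Figures were drawn with matplotlib 3.10.9.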

Additional observations from a re-analysis of the deposited data

How the results depend on the processing

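The fall of BDH2 late against early ran from -1.51 to -1.46 over the alternative settings, that of YER053C-A from -1.09 to -0.97 and that of BDH1 from -0.44 to -0.36, and these 3 passed the test wherever one was run. With single arrays left out the falls ran from -1.52 to -1.47 for BDH2, from -1.13 to -1.06 for RSB1, from -1.04 to -0.99 for YER053C-A, from -0.42 to -0.37 for BDH1 and from -1.27 to -0.92 for BDH2 minus BDH1. A floor of 200 put RSB1 at 0.090 at 30 min and 0.082 late against early, since most of its red spots lie under 200.

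Red signal alone, centred on each array's median and not divided by green, ended the call of BDH1 at 15 min, where it gave -0.0080. It turned the changes of RSB1 (0.022) and YER053C-A (0.011) at 15 min, which had not passed, and that of BDH1 at 90 min (-0.00075). It also lost the calls at 10 min for BDH2, BDH1, RSB1 and YER053C-A (limma, adjusted p = 0.0613, 0.232, 0.205 and 0.251), that of BDH1 at 5 min (0.402) and those of BDH2, RSB1 and YER053C-A at 20 min. Leaving out single arrays moved YER053C-A at 15 min between -0.14 and 0.10 and BDH1 at 45 min between -0.045 and 0.0058. Culture B alone gave YER053C-A 0.088 at 15 min and -0.0041 at 0 min, and over single arrays left out its ratio at 0 min ran from -0.0041 to 0.20. The causes were not tested.

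With no replicate block for culture the difference between BDH2 and BDH1 was the same, -1.09. An exact permutation test over 70 free arrangements gave p = 0.0286, the smallest value that these arrangements allow. It treats the serial arrays of 2 cultures as independent, so it does not replace the p = 0.0556 of the exact permutation test within cultures. Without the block BDH2 lost its call at 20 min (limma, adjusted p = 0.161) and RSB1 gained one at 15 min (adjusted p = 0.0424). The block changed no other call of the 4 genes. RSB1, with signals nearest to the floor, is the gene whose sizes the signal limits most.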
